A study of Mus musculus with 12 samples.

Results

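The 9 genes described here encode transcription factors of the macrophage lineage: Spi1, Runx1, Cebpa, Cebpb, Maf, Tfec, Klf2, Klf4 and Klf6. They were taken by gene symbol from the deposited count tables, where all 9 were found among 24421 genes, and all 9 passed the filter on low counts that left 12164 genes for testing. The data are bulk polyA RNA sequencing of mouse bone marrow-derived macrophages, primary macrophages grown in culture from marrow progenitors, with 12 libraries in 4 groups of 3. The groups were LPS-treated cells (M1) with siEhd1, LPS-treated cells with siControl, unstimulated cells (M0, called resting) with siEhd1, and resting cells with siControl. The siEhd1 groups received a small interfering RNA against Ehd1, a gene of endocytic recycling, and the siControl groups a control siRNA. Lipopolysaccharide (LPS) is a bacterial cell wall component that activates Toll-like receptor 4. Cells of all groups came from male C57BL/6J mice aged 8 weeks, and all had been given an siRNA, so the resting siControl libraries are not untreated cells. How much LPS was used, for how long, and which siRNA sequences were transfected when is not stated in the labels.

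Macrophage identity is set by a small number of DNA-binding proteins acting together at shared enhancers. PU.1 (Spi1) and the C/EBP proteins open and occupy most macrophage enhancers, RUNX1 acts ahead of and beside them in progenitors, and MAF, MiT/TFE and KLF factors adjust maturation, proliferation and the tone of inflammatory genes. When macrophages meet LPS, NF-kB, AP-1 and interferon regulatory factors bind largely at enhancers that the lineage factors already hold. The lineage factors change in amount as well.

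Library totals lay between 18572725 and 22545272 counts. The labels do not say whether the 3 libraries of a group came from separate animals or cultures, so the p-values rest on library-to-library spread, which may be technical. The tested contrasts share libraries, and resting and LPS-treated libraries were deposited in separate tables with no batch label, so any difference in handling of the tables' libraries and LPS cannot be told apart. Ehd1, the siRNA target, had 282, 319 and 304 CPM (counts scaled to library size with TMM factors) in LPS-treated siEhd1 libraries, against 678, 631 and 550.2 CPM in LPS-treated siControl libraries. In resting cells it had 33.6, 32.0 and 29.0 CPM with siEhd1, against 53.3, 52.1 and 54.4 CPM with siControl. Every siEhd1 library was below every siControl library of its state. Ehd1 was at 48.7% of siControl after LPS and 59.2% at rest, so the knockdown was partial. LPS raised Ehd1 itself 9.58-fold with siEhd1 and 11.6-fold with siControl. LPS-treated siEhd1 libraries thus held more Ehd1 RNA than resting siControl libraries, and siEhd1 effects are compared between states of unlike Ehd1 level. All 12 macrophage markers searched, among them Adgre1, Csf1r and Lyz2, were present in every group, with summed levels of 38824 to 40633 CPM in LPS-treated siEhd1, 35606 to 42536 in LPS-treated siControl, 21380 to 23096 in resting siEhd1 and 25733 to 26529 CPM in resting siControl libraries. Lymphocyte markers summed to at most 0.440 CPM in any library and erythroid and mast cell markers to at most 0.264 CPM, and Cd3e, Ncr1, Nkg7, Hba-a1 and Hbb-bt were at 0 counts in all 4 groups. Monocyte and progenitor markers summed to 31.8 to 35.3 CPM in LPS-treated siEhd1, 31.2 to 35.9 in LPS-treated siControl, 62.8 to 71.5 in resting siEhd1 and 76.3 to 88.1 CPM in resting siControl libraries. Stromal and endothelial markers summed to at most 26.6 CPM, neutrophil markers to at most 4.94 CPM and dendritic cell markers to at most 1.72 CPM.

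Between siEhd1 and siControl, 4 of the 9 factors differed in resting cells and 2 in LPS-treated cells. The labels do not give the siRNA sequences, and loss of Ehd1 and other effects of the siRNA cannot be told apart here. In resting cells Klf4 and Tfec were higher and Cebpa and Klf2 lower. In LPS-treated cells Cebpa and Klf2 were lower and 0 of the 9 were higher; the other 7 did not pass the test. A call is an adjusted p under 0.05 in edgeR's quasi-likelihood test with Benjamini-Hochberg adjustment over all 12164 genes. In LPS-treated cells 4.44% of all tested genes were called higher and 4.10% lower; in resting cells 14.0% were called higher and 14.2% lower. The share of members called in a direction, 2 of 9, was thus above the share of all genes in resting cells for both directions and in LPS-treated cells for the lower direction, on a list of only 9 genes chosen with results known. The median log2 fold change of the 9 was -0.03 in LPS-treated and -0.06 in resting cells, beside -0.0045 and -0.016 over all tested genes.

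**Figure D1:**
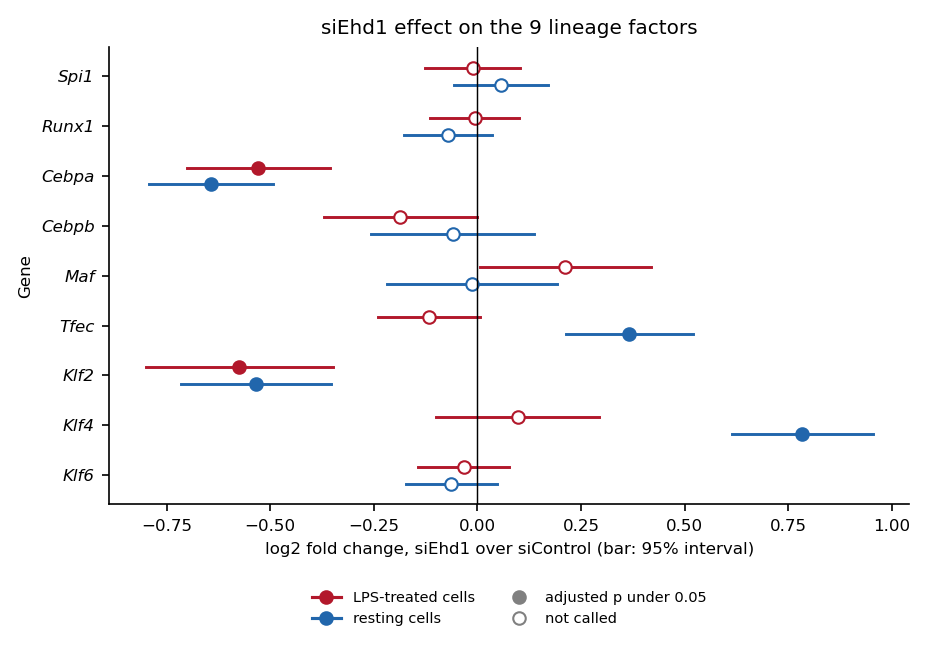
Log2 fold change of each factor, siEhd1 over siControl, with its 95% interval, in LPS-treated cells (red) and resting cells (blue); filled points had an edgeR adjusted p under 0.05. Cebpa and Klf2 lie left of 0 in both states, while Klf4 (0.78) and Tfec (0.37) lie right of 0 with filled points in resting cells.

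Libraries of the siEhd1 groups also differed in markers of other states. Summed cell cycle genes stood at 225 to 236 CPM in LPS-treated siEhd1 libraries, against 153 to 164 CPM in LPS-treated siControl libraries. At rest they stood at 487 to 598 CPM with siEhd1, against 154 to 223 CPM with siControl. Of these 10 genes, 7 were called higher with siEhd1 after LPS and 10 at rest. Osteoclast markers summed to 230 to 257 CPM in LPS-treated siEhd1 libraries, against 164 to 193 CPM in LPS-treated siControl libraries, and to 557 to 638 CPM with siEhd1 at rest, against 443 to 549 CPM with siControl. The osteoclast markers called higher were 3 of 7 tested after LPS and 4 of 7 at rest. Calcr, a defining marker of mature osteoclasts, was not among the 7 tested. It was at 0 counts in 3 of the 4 groups, all but LPS-treated siEhd1. Of the 12 macrophage markers, 1 was called higher and 6 lower with siEhd1 at rest, and 0 higher and 1 lower after LPS. These counts stand beside 14.0% of all tested genes higher and 14.2% lower at rest, and 4.44% and 4.10% after LPS. The part of these markers in the levels of the 9 factors was not tested. In bulk RNA, fewer cells of a type and less RNA per cell cannot be told apart.

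Sequences are shown for the 4 factors that siEhd1 changed. The first set is the sites of a 7-base run, GCCTTGT, in their 3′ untranslated regions (UTRs), shown because Cebpa and Klf2, the 2 members lower in both states, were the 2 members whose longest annotated 3′ UTR held it; the other 7 members held 0 sites. The run was chosen because an earlier look at these data found it often in genes that were lower with siEhd1, so its presence here is not independent evidence, and its part in the lower counts was not tested. The sites are exonic, on the plus strand of GRCm38 in the GENCODE M21 annotation, written 5′ to 3′ with the 7 bases in capitals. The Cebpa sites lie at chr7:35121271-35121298 and chr7:35121428-35121455 and the Klf2 site at chr8:72321176-72321203.
Cebpa site 1: ggggaccattaGCCTTGTgtgtactgta
Cebpa site 2: gtcccagcggtGCCTTGTgcaatggcag
Klf2 site: cgaggctagatGCCTTGTgagaaatgcc
The run was present in the longest 3′ UTR of 13.7% of the 11243 tested genes that had one, and of 9 of 45 tested relatives of the members (20%), which were Cebpd, Cebpg, Erf, Etv3, Gata2, Maff, Mafk, Mef2c and Runx3. Of those 9 relatives, 1 was called lower with siEhd1 after LPS (Cebpg) and 2 at rest (Cebpg and Mef2c). Of the 36 relatives without it, 2 were called lower and 1 higher after LPS, and 7 lower and 3 higher at rest.

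The second set is the 250 bases before the transcription start of the same 4 genes, from RefSeq promoters on GRCm38.p6, shown because Cebpa and Klf2 were lower together and Klf4 and Tfec higher together at rest. Of the 9 members, 7 matched the promoter table; Spi1 and Maf did not. Each is written 5′ to 3′ on the strand of its gene, with motif matches on either strand in capitals. RefSeq starts can differ from the GENCODE gene bounds given below. The Klf2 window runs past the GENCODE start of Klf2 at chr8:72319033, and the Klf4 window stops short of the GENCODE gene. The Cebpa window is chr7:35119043-35119292 (plus strand), the Klf2 window chr8:72318812-72319061 (plus), the Klf4 window chr4:55532476-55532725 (minus) and the Tfec window chr6:16898442-16898691 (minus).
Cebpa promoter: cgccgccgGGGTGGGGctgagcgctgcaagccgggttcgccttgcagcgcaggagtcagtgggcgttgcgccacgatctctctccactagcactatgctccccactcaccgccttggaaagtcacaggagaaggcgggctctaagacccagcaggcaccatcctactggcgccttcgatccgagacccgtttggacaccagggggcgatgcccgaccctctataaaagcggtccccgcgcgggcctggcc
Klf2 promoter: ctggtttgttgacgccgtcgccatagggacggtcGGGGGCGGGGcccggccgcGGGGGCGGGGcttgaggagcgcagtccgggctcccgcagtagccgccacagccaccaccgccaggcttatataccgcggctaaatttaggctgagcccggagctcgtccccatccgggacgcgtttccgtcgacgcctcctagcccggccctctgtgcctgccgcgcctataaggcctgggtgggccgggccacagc
Klf4 promoter: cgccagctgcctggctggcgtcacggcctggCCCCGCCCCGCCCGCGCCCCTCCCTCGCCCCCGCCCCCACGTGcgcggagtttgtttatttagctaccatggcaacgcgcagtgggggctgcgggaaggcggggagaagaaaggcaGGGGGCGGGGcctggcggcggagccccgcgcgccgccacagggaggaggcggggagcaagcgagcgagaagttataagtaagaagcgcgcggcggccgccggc
Tfec promoter: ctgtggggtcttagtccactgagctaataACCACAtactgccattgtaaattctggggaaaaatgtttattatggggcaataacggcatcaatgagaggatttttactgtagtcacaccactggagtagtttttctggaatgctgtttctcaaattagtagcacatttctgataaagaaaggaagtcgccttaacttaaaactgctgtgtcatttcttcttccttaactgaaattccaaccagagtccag
The motifs searched, each on both strands, were ETS GAGGAAGT, C/EBP TTGCNNAA, NF-kB GGGANTTTC, KLF CCNCNCCC, AP-1 TGANTCA, CRE TGACGTCA, ISRE TTCNNTTTC, RUNX TGTGGT and MiT/TFE CACGTG. Capitals in the Cebpa and Klf2 windows mark KLF matches, and in Tfec a RUNX match. In Klf4 they mark 9 KLF matches, some of them overlapping, and 1 MiT/TFE match, at 182 bases before the start, which shares its first base with the KLF match that starts 189 bases before it. The KLF motif was in 45.9% of 32851 RefSeq promoter windows of the same length, the RUNX motif in 14.0% and the MiT/TFE motif in 6.0%. The GC content was 74.0% in Klf4, 71.2% in Klf2, 66.4% in Cebpa and 39.2% in Tfec, beside a median of 52.4% over all windows.

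Spi1 encodes PU.1, the ETS factor without which macrophages do not form, and its gene (ENSMUSG00000002111.8) lies at chr2:91082390-91115756 on the plus strand of GRCm38. It had 477, 516 and 480.1 CPM in LPS-treated siEhd1 libraries, against 515, 509 and 461 CPM in LPS-treated siControl libraries. In resting cells it had 366, 388 and 386 CPM with siEhd1, against 369, 359.7 and 366 CPM with siControl. All 6 LPS-treated libraries were above all 6 resting libraries, and within each state the siEhd1 and siControl libraries overlapped. LPS raised Spi1 1.29-fold with siEhd1 (log2 fold change 0.37, SE 0.05, edgeR adjusted p = 4.8e-06) and 1.36-fold with siControl (log2 fold change 0.44, SE 0.05, edgeR adjusted p = 4.5e-07). The siEhd1 effect was -0.01 in LPS-treated cells (95% interval -0.13 to 0.10, edgeR adjusted p = 0.93) and 0.06 in resting cells (-0.06 to 0.17, edgeR adjusted p = 0.47), on the log2 scale.

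Runx1 encodes the DNA-binding subunit that pairs with CBFB and is needed for blood stem cells to arise; its gene (ENSMUSG00000022952.17) lies at chr16:92601466-92826149 on the minus strand. It had 105, 108 and 101 CPM in LPS-treated siEhd1 libraries and 108, 105 and 102 CPM in LPS-treated siControl libraries. At rest it had 131, 139.8 and 139 CPM with siEhd1 and 149.8, 144 and 137 CPM with siControl. Every LPS-treated library was below every resting library, and the siRNA groups overlapped in both states. LPS lowered Runx1 to 76.5% of resting with siEhd1 (log2 fold change -0.39, SE 0.05, edgeR adjusted p = 1.2e-06) and 73.2% with siControl (log2 fold change -0.45, SE 0.05, edgeR adjusted p = 1.3e-07). The siEhd1 effect was -0.01 after LPS (95% interval -0.11 to 0.10, edgeR adjusted p = 0.96) and -0.07 at rest (-0.18 to 0.03, edgeR adjusted p = 0.32).

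Cebpa encodes C/EBPα, which takes progenitors into the granulocyte and monocyte lineage and restrains proliferation; it is a single-exon gene (ENSMUSG00000034957.10) at chr7:35119293-35121928 on the plus strand. It had 31.1, 36.8 and 31.7 CPM in LPS-treated siEhd1 libraries, against 41.1, 52.1 and 50.6 CPM in LPS-treated siControl libraries. At rest it had 159.9, 163 and 164 CPM with siEhd1, against 257, 239 and 264 CPM with siControl. No groups overlapped, and the order was resting siControl, resting siEhd1, LPS-treated siControl and LPS-treated siEhd1 from high to low. Cebpa with siEhd1 was at 69.3% of siControl after LPS (log2 fold change -0.53, SE 0.08, edgeR adjusted p = 0.00045) and at 64.1% at rest (log2 fold change -0.64, SE 0.07, edgeR adjusted p = 2.4e-06). The difference between these effects was 0.11 (95% interval -0.11 to 0.34, edgeR adjusted p = 0.64), which did not pass the test. LPS lowered Cebpa to 20.5% of its resting level with siEhd1 (log2 fold change -2.29, SE 0.08, edgeR adjusted p = 6e-15) and 18.9% with siControl (log2 fold change -2.40, SE 0.08, edgeR adjusted p = 1.7e-15).

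Cebpb encodes C/EBPβ, the family member that drives inflammatory genes in activated macrophages; its single exon (ENSMUSG00000056501.3) spans chr2:167688915-167690418 on the plus strand. Its count is uncertain, because 312 bases (20.7%) of its exon are shared with Tmem189 on the opposite strand, a gene with 81343 counts over the 12 libraries, and the labels do not give the strand setting of the counting. Cebpb had 402, 487 and 370.1 CPM in LPS-treated siEhd1 libraries, against 443, 479 and 509.8 CPM in LPS-treated siControl libraries. Resting libraries had 76.8, 84.8 and 80.1 CPM with siEhd1, against 77.7, 89.9 and 84.4 CPM with siControl. The LPS-treated libraries were all above the resting ones, and the siRNA groups overlapped in both states. LPS raised it 5.21-fold with siEhd1 (log2 fold change 2.38, SE 0.09, edgeR adjusted p = 2.2e-12) and 5.69-fold with siControl (log2 fold change 2.51, SE 0.09, edgeR adjusted p = 1.1e-12). The siEhd1 effect was -0.19 after LPS (edgeR adjusted p = 0.23) and -0.06 at rest (edgeR adjusted p = 0.67). Without LPS-treated siEhd1 library 2, the highest of its group, the value after LPS was -0.31 and passed the test (edgeR adjusted p = 0.011).

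The C/EBP pair moved in opposite directions with LPS. The Cebpb to Cebpa ratio of counts, which does not depend on library scaling, was 12.9, 13.2 and 11.7 in LPS-treated siEhd1 libraries, against 10.8, 9.20 and 10.1 in LPS-treated siControl libraries. At rest it was 0.480, 0.519 and 0.488 with siEhd1, against 0.302, 0.376 and 0.319 with siControl. The ratio was therefore below 1 in all 6 resting libraries and at least 9.20 in all 6 LPS-treated libraries, and every siEhd1 library was above every siControl library of its state. It takes no account of exon length (1504 bases for Cebpb, 2636 for Cebpa), so it does not compare the levels of the genes. Per kilobase of exon, Cebpb and Cebpa averaged 53.6 and 61.6 CPM in resting siEhd1 cells, and 55.8 and 96.2 in resting siControl cells. The uncertainty of the Cebpb count from Tmem189 applies to the ratio too. On the log2 scale the siEhd1 minus siControl difference was 0.33 after LPS and 0.58 at rest, each with an exact two-sided permutation p of 0.1, the smallest that 3 against 3 libraries allow. The LPS minus resting difference was 4.67 with siEhd1 and 4.92 with siControl, with the same exact permutation p of 0.1.

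**Figure D2:**
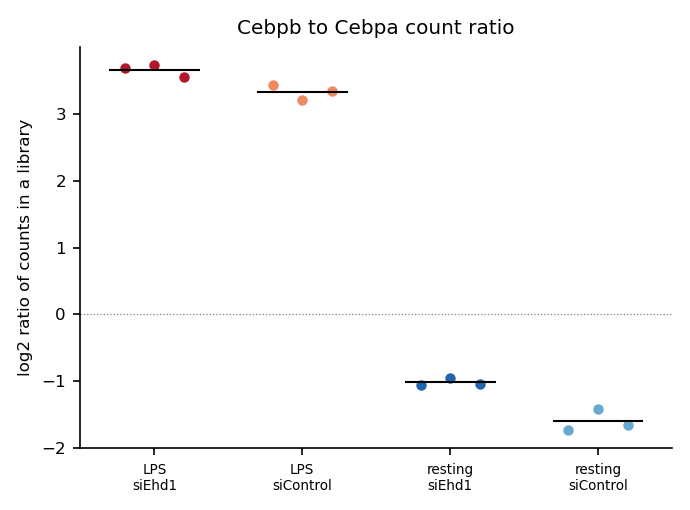
Log2 ratio of raw counts within each library, not adjusted for exon length, for Cebpb to Cebpa in the 4 groups. Points are libraries and lines group means. The Cebpb to Cebpa ratio lies above 0 in all LPS-treated libraries and below 0 in all resting libraries, and each siEhd1 group has a higher mean than the siControl group of its state.

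Maf encodes c-MAF, which helps hold mature macrophages out of the cell cycle and activates Il10; its gene (ENSMUSG00000055435.6) lies at chr8:115682942-115707794 on the minus strand. It had 229.9, 220.4 and 226 CPM in LPS-treated siEhd1 libraries, against 216, 194 and 174 CPM in LPS-treated siControl libraries. At rest it had 185, 219 and 240.5 CPM with siEhd1, against 239, 204 and 208 CPM with siControl. The LPS-treated siEhd1 libraries were all above the LPS-treated siControl libraries, while the resting groups overlapped. No contrast passed the test for Maf: the siEhd1 effect was 0.21 after LPS (95% interval 0.01 to 0.42, edgeR adjusted p = 0.22) and -0.01 at rest (-0.22 to 0.19, edgeR adjusted p = 0.94). The LPS effect was 0.07 with siEhd1 (edgeR adjusted p = 0.55) and -0.16 with siControl (edgeR adjusted p = 0.16); with upper quartile scaling, which moved the median of all genes in the LPS contrasts to between -0.12 and -0.11, the siControl value was -0.25 and was called (edgeR adjusted p = 0.028).

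Tfec encodes a MiT/TFE factor made mainly in macrophages, a relative of MITF and TFEB; its gene (ENSMUSG00000029553.10) lies at chr6:16833373-16898441 on the minus strand. It had 61.2, 61.0 and 56.3 CPM in LPS-treated siEhd1 libraries, against 65.6, 64.9 and 63.2 CPM in LPS-treated siControl libraries. Resting libraries had 16.3, 16.4 and 18.6 CPM with siEhd1, against 13.3, 12.5 and 13.9 CPM with siControl. No groups overlapped: the siEhd1 libraries were below the siControl libraries after LPS and above them at rest. Tfec with siEhd1 was at 129% of siControl at rest (log2 fold change 0.37, SE 0.07, edgeR adjusted p = 0.00083), while the value after LPS did not pass the test (log2 fold change -0.12, SE 0.06, edgeR adjusted p = 0.27). The difference between the effects, LPS-treated minus resting, was -0.48 (SE 0.09, edgeR adjusted p = 0.0034) and was called. LPS raised Tfec 3.48-fold with siEhd1 (log2 fold change 1.80, SE 0.07, edgeR adjusted p = 1.3e-15) and 4.87-fold with siControl (log2 fold change 2.28, SE 0.07, edgeR adjusted p = 4e-17).

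Klf2 encodes a zinc finger factor that keeps myeloid and endothelial cells in a quiet, less inflammatory state; its gene (ENSMUSG00000055148.7) lies at chr8:72319033-72321656 on the plus strand. It had 9.38, 10.2 and 9.24 CPM in LPS-treated siEhd1 libraries, against 12.9, 14.8 and 15.3 CPM in LPS-treated siControl libraries. Resting libraries had 21.4, 26.4 and 25.4 CPM with siEhd1, against 39.4, 32.0 and 34.8 CPM with siControl. No groups overlapped, and the order from high to low was that of Cebpa. Klf2 with siEhd1 was at 67.1% of siControl after LPS (log2 fold change -0.58, SE 0.11, edgeR adjusted p = 0.0017) and at 69.0% at rest (log2 fold change -0.53, SE 0.09, edgeR adjusted p = 1e-04). The difference between the effects was -0.04 (95% interval -0.33 to 0.25, edgeR adjusted p = 0.92). LPS lowered it to 39.4% of resting with siEhd1 (log2 fold change -1.34, SE 0.10, edgeR adjusted p = 2.6e-10) and 40.6% with siControl (log2 fold change -1.30, SE 0.09, edgeR adjusted p = 1e-10).

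Klf4 encodes a zinc finger factor of monocyte differentiation that also favours the alternatively activated state; its gene (ENSMUSG00000003032.8) lies at chr4:55527143-55532466 on the minus strand. It had 17.9, 18.0 and 16.3 CPM in LPS-treated siEhd1 libraries, against 15.0, 18.2 and 15.6 CPM in LPS-treated siControl libraries. At rest it had 42.1, 47.7 and 39.9 CPM with siEhd1, against 22.6, 26.2 and 26.5 CPM with siControl. The resting siEhd1 libraries stood above all others, and after LPS the siRNA groups overlapped. Klf4 with siEhd1 was at 172% of siControl at rest (log2 fold change 0.78, SE 0.08, edgeR adjusted p = 5.2e-07), the largest siEhd1 effect among the 9 factors in either state. After LPS the value did not pass the test (log2 fold change 0.10, SE 0.09, edgeR adjusted p = 0.61). The difference between the effects was -0.69 (SE 0.12, edgeR adjusted p = 0.0018). LPS lowered Klf4 to 40.4% of resting with siEhd1 (log2 fold change -1.31, SE 0.09, edgeR adjusted p = 2.3e-11) and 65.0% with siControl (log2 fold change -0.62, SE 0.09, edgeR adjusted p = 3.3e-06).

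Klf6 encodes a zinc finger factor that supports inflammatory gene expression in macrophages; its gene (ENSMUSG00000000078.7) lies at chr13:5861482-5870394 on the plus strand. It was the most even of the 9, with 342, 321 and 317 CPM in LPS-treated siEhd1 libraries, 312, 344 and 347 CPM in LPS-treated siControl, 328, 331 and 329.6 CPM in resting siEhd1 and 355, 339.8 and 338 CPM in resting siControl libraries. The highest group mean was 1.05 times the lowest. No contrast passed the test: the siEhd1 effect was -0.03 after LPS (95% interval -0.14 to 0.08, edgeR adjusted p = 0.79) and -0.06 at rest (-0.17 to 0.05, edgeR adjusted p = 0.4). The resting siEhd1 libraries were nevertheless all below the resting siControl libraries. The LPS effect was -0.01 with siEhd1 (edgeR adjusted p = 0.85) and -0.04 with siControl (edgeR adjusted p = 0.48); under upper quartile scaling these were -0.12 (edgeR adjusted p = 0.049) and -0.14 (0.023), close to that scaling's shift of all genes.

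**Figure D3:**
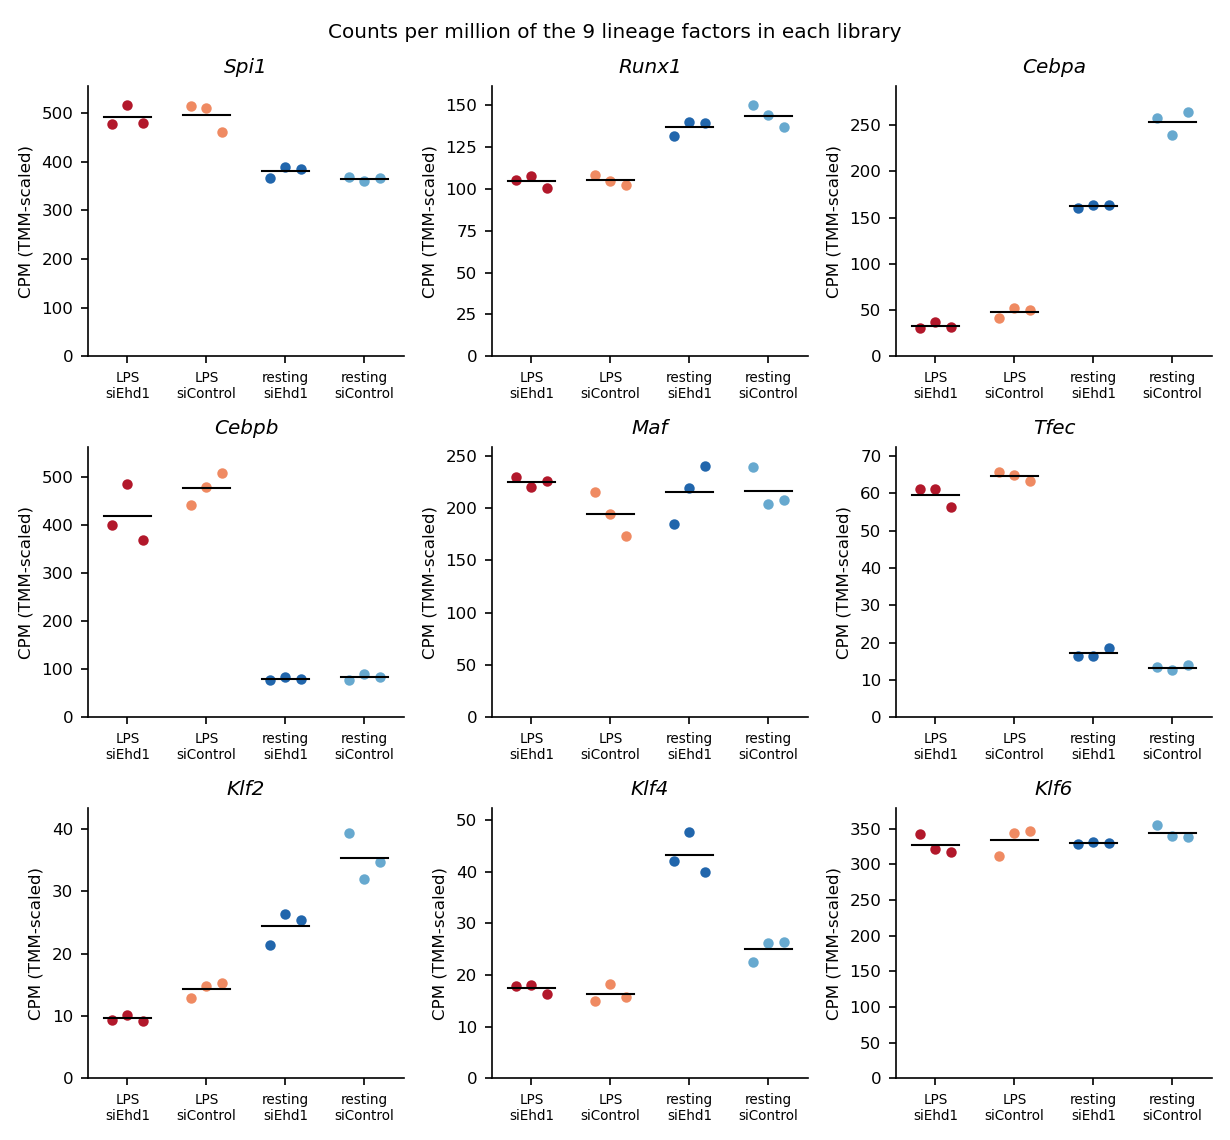
CPM of the 9 factors in each library (points) with the group mean (line), in LPS-treated siEhd1, LPS-treated siControl, resting siEhd1 and resting siControl cells; every vertical axis starts at 0. Cebpa and Klf2 fall in the same order over the groups, Klf4 is highest in resting siEhd1 libraries, and Klf6 and Maf are nearly level.

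LPS changed 7 of the 9 factors under either siRNA. With siEhd1, LPS raised 3 (Spi1, Cebpb and Tfec) and lowered 4 (Cebpa, Klf2, Klf4 and Runx1), against 32.9% of all tested genes called higher and 34.0% lower. With siControl the same 3 rose and the same 4 fell, against 34.8% of all tested genes higher and 34.0% lower. With upper quartile scaling the split of all calls was 3187 higher and 5107 lower with siEhd1, against 4005 and 4139 with TMM, and 3496 higher and 4974 lower with siControl, against 4237 and 4132 with TMM. The members' shares, 3 and 4 of 9, are near the background, so the counts alone do not set the factors apart. The difference of the siEhd1 effects, LPS-treated minus resting, was called for 0 members in the higher direction and 2 in the lower (Klf4 and Tfec), beside 3.12% and 2.93% of all tested genes. Of the 22 calls over the 5 contrasts, all 22 held under every alternative tried.

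**Figure D4:**
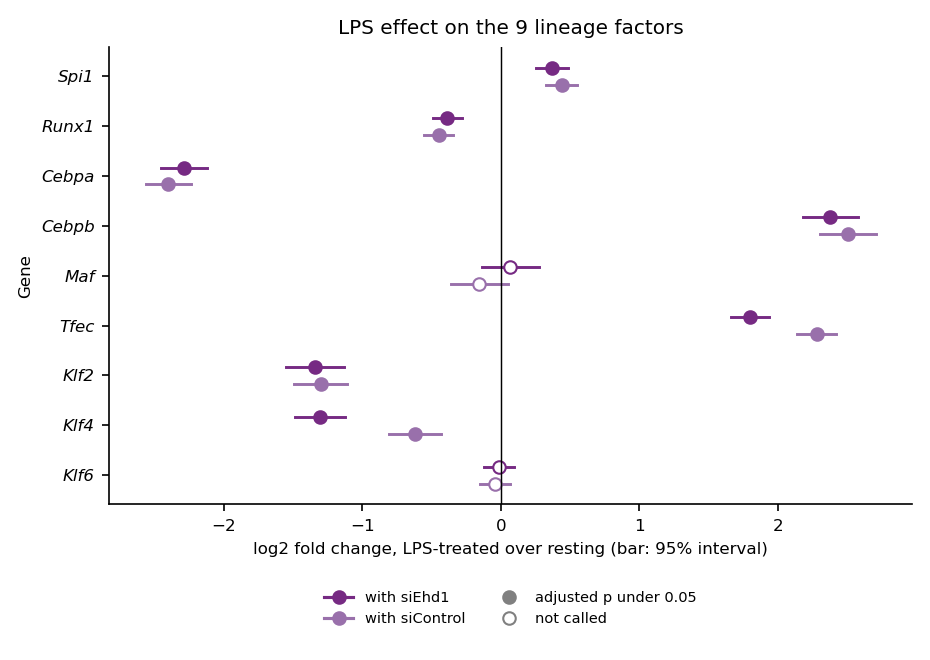
Log2 fold change of each factor, LPS-treated over resting, with its 95% interval, with siEhd1 (dark purple) and with siControl (light purple); filled points had an edgeR adjusted p under 0.05. The intervals of the siRNA conditions are apart for Klf4 (-1.31 with siEhd1 and -0.62 with siControl) and for Tfec (1.80 and 2.28).

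Levels can be compared between genes only per length, here as mean CPM per kilobase of merged GENCODE M21 exons. In LPS-treated siEhd1 cells Cebpb led with 279, followed by Spi1 with 182 and Klf6 with 74.4; the lowest were Klf4 with 5.71 and Klf2 with 5.20 CPM per kilobase. In LPS-treated siControl cells the top 3 were the same, with 317, 184 and 76.1 CPM per kilobase. In resting siEhd1 cells Spi1 led with 141, then Klf6 with 75.0, Cebpa with 61.6 and Cebpb with 53.6 CPM per kilobase. In resting siControl cells Spi1 led with 135, then Cebpa with 96.2, Klf6 with 78.4 and Cebpb with 55.8 CPM per kilobase. Tfec was the lowest of the 9 at rest, with 3.06 in siEhd1 and 2.37 CPM per kilobase in siControl cells. Cebpa thus stood below Klf6 in resting siEhd1 cells and above it in resting siControl cells. The exon lengths come from a public annotation, and the labels do not name the annotation used for counting.

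Profiles were compared as the root mean square difference of log2 CPM over the 12 libraries, each gene centred on its own mean. The 9187 candidate genes had at least 5 CPM on average. Genes with a Gm-number or Rik symbol were left out of the candidates. Among the factors themselves, the closest pair was Maf and Klf6 at 0.16, which varied little, and Cebpb and Tfec, both raised by LPS, were 0.29 apart. Cebpa and Cebpb were the farthest apart, at 2.40. The nearest genes to Spi1 were Tor4a (0.03) and Naa60 (0.04), to Runx1 Tmem106b (0.04) and Zfp646 (0.05), to Cebpa Nedd9 (0.18) and Sort1 (0.19) and to Cebpb Bcl3 (0.12) and Rab32 (0.13). Those nearest to Maf were Eif4e3 (0.08) and Hfe (0.09), to Tfec Ero1l (0.10) and Kdm6b (0.11), to Klf2 Crebrf (0.09) and N4bp2l1 (0.12), to Klf4 Calcrl (0.08) and Ywhah (0.12) and to Klf6 Usp34 (0.04) and Chd1 (0.04). Calcrl, for example, averaged 44.1 CPM in LPS-treated siEhd1, 37.4 in LPS-treated siControl, 98.9 in resting siEhd1 and 59.9 CPM in resting siControl libraries, the order of Klf4. Crebrf, nearest to Klf2, averaged 35.0, 50.1, 89.1 and 125.7 CPM in the same groups, and Sort1, listed beside Cebpa, averaged 14.2, 15.4, 70.8 and 102.1 CPM.

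Relatives of the 9 factors were counted from lists of their families and of other lineage regulators, 49 genes of which 45 were tested. With siEhd1, 1 relative was called higher and 3 lower after LPS, and 3 higher and 9 lower at rest. Over all tested genes 4.44% were higher and 4.10% lower after LPS, and 14.0% and 14.2% at rest. The relatives called higher, 3 of 45 at rest and 1 of 45 after LPS, were a smaller share than over all genes. Those called lower, 9 of 45 at rest and 3 of 45 after LPS, were a larger share. The counts after LPS are small, and no difference in share was tested. Among ETS factors, Spic, which marks iron-recycling macrophages, was lower after LPS (-0.50, edgeR adjusted p = 0.0031), and Ets2 higher at rest (0.33, edgeR adjusted p = 0.019). Cebpg, a C/EBP protein that lacks an activation domain, was lower after LPS (-0.23, edgeR adjusted p = 0.033) and at rest (-0.21, edgeR adjusted p = 0.014). Klf3 (-0.29, edgeR adjusted p = 0.0044), Klf11 (-0.41, edgeR adjusted p = 0.012) and Klf13 (-0.18, edgeR adjusted p = 0.015) were lower at rest, and no other KLF relative was called in either state. Cbfb, the partner subunit of RUNX1, was higher at rest (0.34, edgeR adjusted p = 0.00011), and 0 of the 3 other MiT/TFE factors were called. Among other lineage regulators, Id3, an inhibitor of basic helix-loop-helix factors, was lower after LPS (-0.65, edgeR adjusted p = 0.003) and at rest (-0.73, edgeR adjusted p = 2.2e-07). Pparg, a nuclear receptor of lipid metabolism, was higher after LPS (0.76, edgeR adjusted p = 0.006). Both were low after LPS: Id3 averaged 2.78 CPM with siEhd1 and 4.38 CPM with siControl, and Pparg 5.37 and 3.17 CPM. At rest Pparg averaged 91.4 CPM with siEhd1 and 81.6 CPM with siControl. Bhlhe41 (-0.33, edgeR adjusted p = 0.00017) and Nr1h3, which encodes LXRα (-0.36, edgeR adjusted p = 0.00022), were lower at rest. The resting calls of Ets2 (without siControl library 1 or siEhd1 library 2, highest adjusted p 0.083), Cebpg (without library 2 of either siRNA, 0.070) and Klf13 (without library 1 of either siRNA, 0.087) each ended in edgeR's test with 1 library left out. The Cebpg call after LPS ended without siEhd1 library 2 or 3 or siControl library 2 or 3, with edgeR adjusted p up to 0.16, and with the LPS-treated libraries fitted alone (0.081).

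**Figure D5:**
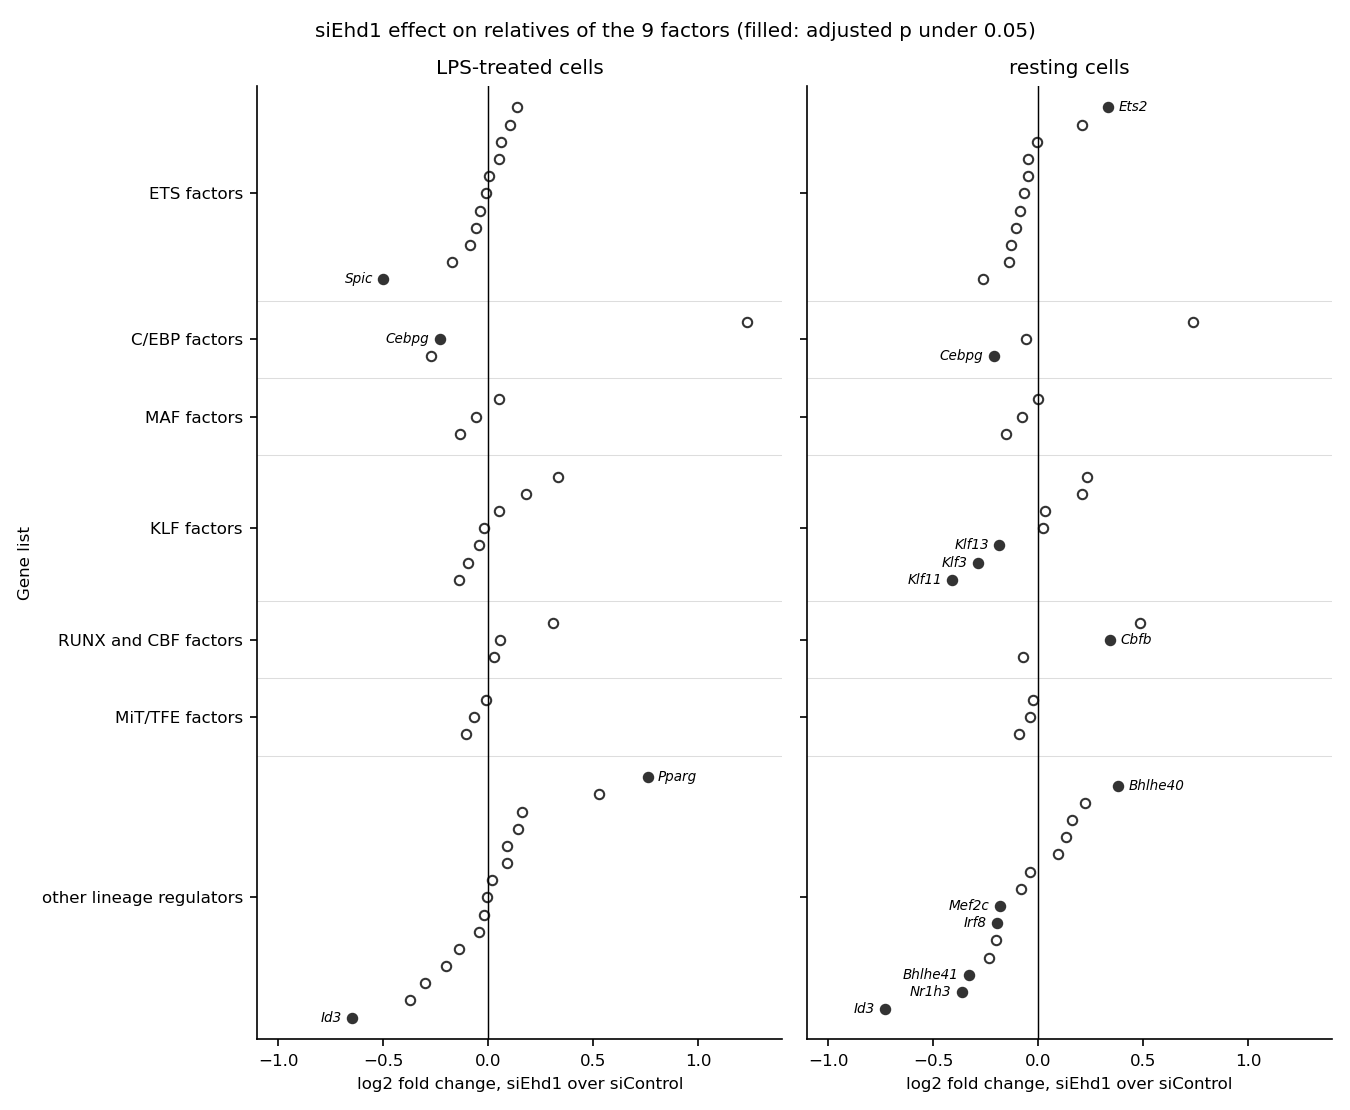
Log2 fold change, siEhd1 over siControl, of the tested relatives in each family list, in LPS-treated cells (left) and resting cells (right); 1 point per gene, sorted by value, filled and named where the edgeR adjusted p was under 0.05. Gfi1 is left out of the resting panel, where a group held at most 3 counts. There are 4 filled points after LPS (1 higher) and 12 at rest (3 higher).

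With LPS, 16 of the 45 tested relatives rose and 22 fell under siEhd1, and 16 rose and 24 fell under siControl. LPS also changed most of all tested genes, with 32.9% called higher and 34.0% lower under siEhd1 and 34.8% and 34.0% under siControl. Cebpd, the other C/EBP gene of acute inflammation, rose by 2.10 with siEhd1 and 2.31 with siControl on the log2 scale, beside 2.38 and 2.51 for Cebpb. Klf9 changed by -2.97 with siEhd1 and -3.28 with siControl, Klf7 by 3.26 and 3.44, and Klf11 by -2.06 and -2.37, all larger in size than the LPS effect on Klf2 or Klf4 in the same siRNA condition. Tfeb, a master gene of lysosome formation, changed by -1.48 with siEhd1 and -1.44 with siControl, opposite in sign to Tfec. Pparg changed by -4.09 with siEhd1 and -4.68 with siControl, and Spic by 3.52 and 4.23. The edgeR adjusted p of each of these values was below 0.05.

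Known target genes of the factors were counted as lists, and many of them respond to more than 1 factor. Each count is to be read against all tested genes, of which 4.44% were called higher and 4.10% lower with siEhd1 after LPS, and 14.0% and 14.2% at rest. Of 22 PU.1 targets, 0 were called higher and 4 lower with siEhd1 after LPS, and 4 higher and 10 lower at rest, while Spi1 itself was not called in either state. The resting values with the smallest p were Fcgr1, an Fc receptor (-0.80, edgeR adjusted p = 2.8e-09), Csf3r, the G-CSF receptor (-1.0, edgeR adjusted p = 1.9e-08), and Fcgr2b (-0.57, edgeR adjusted p = 6.3e-07). After LPS they were Csf3r (-0.38, edgeR adjusted p = 0.0018), Il1b (-0.47, edgeR adjusted p = 0.011) and Cd14 (-0.26, edgeR adjusted p = 0.022). Of 11 tested C/EBP targets, 0 were higher and 3 lower after LPS (Lcn2, -0.52, edgeR adjusted p = 9e-06; Csf3r; Slpi, -0.45, edgeR adjusted p = 0.045), and 2 higher and 3 lower at rest, among them Csf3r, Lyz2 (-0.33, edgeR adjusted p = 0.0037) and Il1rn (1.18, edgeR adjusted p = 0.012). The median of the C/EBP targets was -0.09 after LPS and -0.21 at rest, beside -0.0045 and -0.016 over all tested genes. Leaving out 1 library ended the calls after LPS of Il1b (siControl 2 or siEhd1 3, edgeR adjusted p up to 0.052), Cd14 (siControl 2, siEhd1 1 or siEhd1 3, up to 0.13) and Slpi (siControl 1 or 2, any siEhd1 library or resting siControl 2 or 3, up to 0.21). In DESeq2 the Il1b value after LPS was not called (DESeq2 adjusted p = 0.20), nor was that of Slpi (0.089). The resting Il1rn call ended with the resting libraries fitted alone (edgeR adjusted p = 0.053).

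Of 9 MAF targets, 1 was higher and 0 lower with siEhd1 after LPS (Folr2, 0.53, edgeR adjusted p = 1.7e-05), and 2 were higher and 2 lower at rest, including Mrc1 (0.41, edgeR adjusted p = 0.0071), C1qb (-0.25, edgeR adjusted p = 0.013) and C1qc (-0.25, edgeR adjusted p = 0.02). Of 7 tested KLF targets, 1 was higher and 1 lower in each state, at rest about the share over all tested genes: after LPS Thbd, thrombomodulin, was higher (0.65, edgeR adjusted p = 0.0015) and Cd14 lower, and at rest Ptgs2 was higher (1.15, edgeR adjusted p = 0.028) and Cd14 lower (-0.20, edgeR adjusted p = 0.036). Ptgs2 averaged 0.754 CPM in resting siEhd1 and 0.337 CPM in resting siControl libraries. Of 3 tested RUNX1 targets, which include the member Spi1, 0 were called with siEhd1 after LPS. Itgal (-0.80, edgeR adjusted p = 7.7e-06) and Csf1r, the receptor of macrophage colony-stimulating factor (-0.21, edgeR adjusted p = 0.023), were lower at rest. Of 11 tested MiT/TFE targets, 3 were higher and 3 lower after LPS, and 2 higher and 4 lower at rest. Csf3r, which is in this list too, had its smallest p at rest (-1.0, edgeR adjusted p = 1.9e-08) and was also lower after LPS (-0.38, edgeR adjusted p = 0.0018). Acp5, an acid phosphatase that is also an osteoclast marker, was higher after LPS (0.40, edgeR adjusted p = 0.00093) and at rest (0.75, edgeR adjusted p = 2.1e-05). Sqstm1 was lower after LPS (-0.34, edgeR adjusted p = 0.00073) and Mcoln1 lower at rest (-0.39, edgeR adjusted p = 1.1e-05). Calls at rest that ended when 1 library was left out were C1qb and C1qc (siControl 1, siEhd1 1 and, for C1qc, siEhd1 2, edgeR adjusted p up to 0.12), Csf1r (siControl 1 or siEhd1 1, up to 0.13), Ptgs2 (any but siEhd1 3, up to 0.12) and Cd14 (any but siEhd1 2, and also LPS-treated siEhd1 1, up to 0.19). Whether these genes follow the level of the factors was not tested.

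The spread within groups set how small a difference could be called. The coefficient of variation over 3 libraries ran from 0.557% for Klf6 in resting siEhd1 cells to 14.4% for Cebpb in LPS-treated siEhd1 cells, and it was 13.0% for Maf in resting siEhd1 cells. The intervals given are not adjusted over genes: that of Maf after LPS, 0.01 to 0.42, lies above 0 although its adjusted p missed the threshold. The uncalled siEhd1 effects are bounded by these intervals and are not shown to be absent.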

How the data were processed

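Polyadenylated RNA of mouse bone marrow-derived macrophages was sequenced in 12 libraries, 3 for each combination of siEhd1 or siControl with LPS or no stimulation. The authors deposited raw read counts per gene in 2 tables, 1 for each state. Per the submitters' processing notes, which list tools without roles, the tools were STAR 2.7.6a, cutadapt, Trim Galore 0.6.3, FastQC 0.10.1, R 4.4.2, featureCounts 2.20.0 and DESeq2 1.46.0, with the mm10 build. Neither labels nor file headers name the gene annotation, the strand setting or the handling of multi-mapped reads. Columns left unused numbered 0.

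The tables were joined by gene and grouped by the labels. All 4 groups were fitted together on the deposited counts in R 4.3.3 with edgeR 4.0.16 (TMM, quasi-likelihood test, 8 residual degrees of freedom) after filterByExpr (minimum count 10, minimum total 15), which kept 12164 of 17270 genes with a count. A call is a Benjamini-Hochberg adjusted p under 0.05. The script was tested on simulated counts. Library totals were 18572725 to 22545272 counts with 14119 to 14753 genes detected, and the common biological coefficient of variation was 5.88%. Of the replicate pairs, 0 were identical, and the chi-square of counts in a pair was 3.00 to 23.6 per degree of freedom, above the value of sampling noise alone. The labels do not say what replicate numbers mean and same-numbered libraries did not all deviate together, so the numbers were not used as pairs.

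The members and gene lists (relatives, target genes, markers) were chosen with earlier results of these data known. Text names all 9 members, Ehd1, the 2 genes of nearest profile to each member and up to 3 called genes of smallest p per list of relatives or targets and contrast; relatives that hold the 7-base run are named to list that count. Some planned items are not reported here. Alternatives were RLE and upper quartile scaling, no filter, DESeq2 1.42.0, limma-voom (limma 3.58.1), a replicate block, the libraries of 1 state alone and leaving out each library.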

Additional observations from a re-analysis of the deposited data

Results flagged for a closer look

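The siEhd1 effect differed between the states, by edgeR's test of the interaction over all 12164 genes, for the genes given here; each value is the siEhd1 effect (log2) in LPS-treated cells minus that in resting cells. Among the factors, Klf4 differed by -0.69 and Tfec by -0.48. Klf4 was higher with siEhd1 at rest, with no call after LPS, and Tfec was higher at rest with an uncalled lower value after LPS.

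Among relatives, Ets2 differed by -0.51, Cbfb by -0.31, Nr1h3 by 0.45, Bhlhe41 by 0.34 and Irf8 by 0.28. Among target genes, Fcgr1 differed by 0.92, Csf3r by 0.62, Fcgr2b by 0.38, Lyz2 by 0.41, Folr2 by 0.34, Thbd by 0.88, Itgal by 0.52 and Gpnmb by 0.42. Cell cycle genes moved in the same contrast, with 6 of 10 called lower and 0 higher, beside 2.93% and 3.12% of all tested genes. Their part was not tested. The call of Itgal (edgeR adjusted p = 0.056) ended only without resting siEhd1 library 1 among the alternatives run. Those of the following genes ended without any of several libraries, and the highest edgeR adjusted p came without the library named: Ets2 (0.075, resting siEhd1 2), Cbfb (0.071, resting siControl 1), Bhlhe41 (0.053, LPS-treated siControl 2), Irf8 (0.087, resting siControl 1), Lyz2 (0.094, resting siEhd1 1), Folr2 (0.074, LPS-treated siEhd1 3) and Gpnmb (0.11, LPS-treated siEhd1 1). The Gpnmb call also ended with upper quartile scaling (0.051), and other settings that ended calls are given with the processing.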

How the results depend on the processing

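All 22 calls on the 9 factors held under every alternative run, and 19 of the 23 uncalled values stayed uncalled under all of them. Leaving out 1 library in turn gave 4 to 4 factors called with siEhd1 at rest (main 4), 2 to 3 after LPS (2), 7 to 7 with LPS under either siRNA (7) and 2 to 2 in the difference of the siEhd1 effects (2). Over all genes, the counts called higher and lower ran from 304 to 594 and from 303 to 506 with siEhd1 after LPS (main 540 and 499), both lowest without LPS-treated siEhd1 library 1, and from 1201 to 1868 and from 1148 to 1857 at rest (1704 and 1728), the second lowest without resting siControl library 1. They ran from 3792 to 4108 and from 3833 to 4248 with LPS under siEhd1 (4005 and 4139), and from 4023 to 4284 and from 3866 to 4184 with LPS under siControl (4237 and 4132). In the difference they ran from 243 to 429 (379, lowest without resting siEhd1 library 1) and from 209 to 418 (356), with 209 without resting siControl library 1, 210 and 221 without resting siEhd1 library 1 or 2, and 235 and 236 without LPS-treated siEhd1 library 1 or 3. The Cebpb to Cebpa log2 difference ran from 0.27 to 0.39 after LPS and 0.52 to 0.67 at rest. A replicate block within each state called 232 genes lower in the difference. It also ended the calls of Cebpg (edgeR adjusted p = 0.069) and Slpi (0.081) after LPS, of Il1rn (0.077) and Csf1r (0.058) at rest, and, in the difference, of Bhlhe41 (0.050), Cbfb (0.058), Folr2 (0.058), Gpnmb (0.073), Irf8 (0.075) and Lyz2 (0.056). Same-number correlations of siEhd1 with siControl libraries were -0.04, 0.19 and 0.09 after LPS and -0.06, -0.14 and -0.17 at rest, and those of LPS-treated with resting libraries ran from 0.01 to 0.25 with siEhd1 and from -0.16 to 0.04 with siControl. The labels do not say what the numbers mean, and not every pair exceeded 0.1, so the numbers were not taken as pairs. The cause of these changes was not tested. Upper quartile scaling moved the median of all genes to -0.12 in the LPS contrast with siEhd1 and -0.11 with siControl, and the share of calls that were higher to 38.4% with siEhd1 (main 49.2%) and 41.3% with siControl (main 50.6%), so the balance of higher and lower LPS calls depends on the scaling.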
